A study of Drosophila melanogaster with 12 samples.

Results

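Guts of adult Drosophila melanogaster males that carried the Hinfp2 allele and a rescuing transgene were compared with guts of adult FRT19A control males by RNA sequencing. The comparison holds 3 libraries of the 12 in the series, 1 of the Hinfp rescue, 1 of the His1 rescue and 1 of the control, chosen by their sample titles. The question addressed is which differences from the control both rescues have in common. The series also has 1 adult library of the unrescued Hinfp2 mutant, given side by side below, and 8 libraries of pharate adults, which are fully formed flies that have not yet left the pupal case. Of those, the pharate males of the Hinfp2 deletion mutant and of the control strains W1118 and FRT19A are used below, with 2 libraries each, and the Hinfp3 point mutant group was not used. The pharate labels call the Hinfp2 allele a deletion.

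The Hinfp rescue males had Hinfp2 on their X chromosome and tub-Gal4 with UAS-Hinfp-HA on the third chromosome, and the His1 rescue males had the same Hinfp2 X chromosome and tub-Gal4 with UAS-His1-HA. Both rescues were 8 to 9 days old, as was the unrescued mutant, whose genotype was Y/Hinfp2. The control males were Y/FRT19A and 5 to 6 days old. Age, strain background, the Hinfp2 allele that the rescues still carry, and the transgenes all differ between the rescues and the control and cannot be told apart here. The tub-Gal4 driver is active in most cells of the fly, so the transgenes were not limited to the gut. About 50 guts were pooled for each library, from flies reared at 25 °C, and the reads were 100 bp long. With 1 library per genotype, no difference below has a replicate check and no test was made. Intervals and limits from counts cover counting error only.

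Hinfp is a zinc finger transcription factor, named after its human counterpart, which activates histone H4 genes. In Drosophila it has been linked to expression of the linker histone H1, the protein that His1 encodes, and H1 is needed to keep heterochromatin compact and transposable elements silent. In the fly midgut, enterocytes secrete proteases, amylases and lysozymes, and the Imd pathway answers bacterial peptidoglycan with antimicrobial peptides.

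The deposited adult table had 15651 gene rows and 156 transposable element families. Gene counts summed to 17991664 in the Hinfp rescue, 18213514 in the His1 rescue, 18005701 in the mutant and 20271512 in the control. Values are CPM, counts divided by library size on the usual common scale, with TMM factors from the gene rows. Log2 ratios are of CPM plus 0.5, a pseudocount that understates the ratio of low genes. A gene was measured where its mean over the 4 adult libraries was at least 1 CPM, which 10750 genes and 139 element families reached, and it was counted as shared where both rescues lay at least 2-fold from the control in the same direction. Fewer cells of a type and less RNA per cell cannot be told apart in such pooled tissue. Markers of the labelled tissue were present: the enterocyte list summed to 7979 CPM in the Hinfp rescue, 7529 CPM in the His1 rescue and 7379 CPM in the control, and all 21 listed Malpighian tubule genes were measured. The labels give the tissue as intestine and the design text adds the tubules, the excretory organs attached to the gut.

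The transgene could be checked for Hinfp. The gene lies on chromosome X at 625542 to 628016 on the plus strand (BDGP6) and is listed in the table under its older name CG17829. It had 28734 counts in the Hinfp rescue, 114 in the His1 rescue, 95 in the mutant and 244 in the control. Scaled, that was 1664 CPM in the Hinfp rescue and 12.6 CPM in the control, a ratio of 132 (95% interval 116 to 150.2), while the His1 rescue had 6.42 CPM, 0.509 of the control (0.404 to 0.638). The Hinfp rescue thus carried far more Hinfp RNA than the control, and the His1 rescue carried less. No row for the linker histone is used here, so His1 overexpression was not checked. The white gene (w, chromosome X, 2790599 to 2796466), which encodes an eye pigment transporter and marks many fly transgenes, had 1899 counts in the Hinfp rescue, 1616 in the His1 rescue, 8 in the mutant and 0 in the control. Against a floor of 3 counts in the control library, it was at least 709-fold higher in the Hinfp rescue and at least 587-fold higher in the His1 rescue.

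Both rescues differed from the control at many of the same genes. Of the 10750 measured genes, 522 were at least 2-fold higher in both rescues (4.86%) and 593 were at least 2-fold lower in both (5.52%). Taken singly, 754 genes were higher in the Hinfp rescue (7.01%) and 872 lower (8.11%), and 812 were higher in the His1 rescue (7.55%) and 826 lower (7.68%). The rescues share 1 control library, so these counts are not independent of each other. The median gap between the rescues over all measured genes was 0.19 on the log2 scale, and 473 genes differed by at least 2-fold between them. The median log2 ratio over all measured genes was -6.8e-05 in the Hinfp rescue and -0.015 in the His1 rescue. At a limit of 4-fold, 152 genes were higher in both rescues and 155 lower in both. Of the 522 higher genes, 141 had under 1 CPM in the control, and 18 had no count there, so they were measured through the other libraries. At the edge of the limit, P5cr-2 was the last gene inside on the higher side, with log2 ratios of 1.23 in the Hinfp rescue and 1.003 in the His1 rescue, and lncRNA:CR43334 the first outside, with 1.04 and 0.999. On the lower side Men-b was the last inside, with -1.001 in the Hinfp rescue and -1.15 in the His1 rescue.

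**Figure D1:**
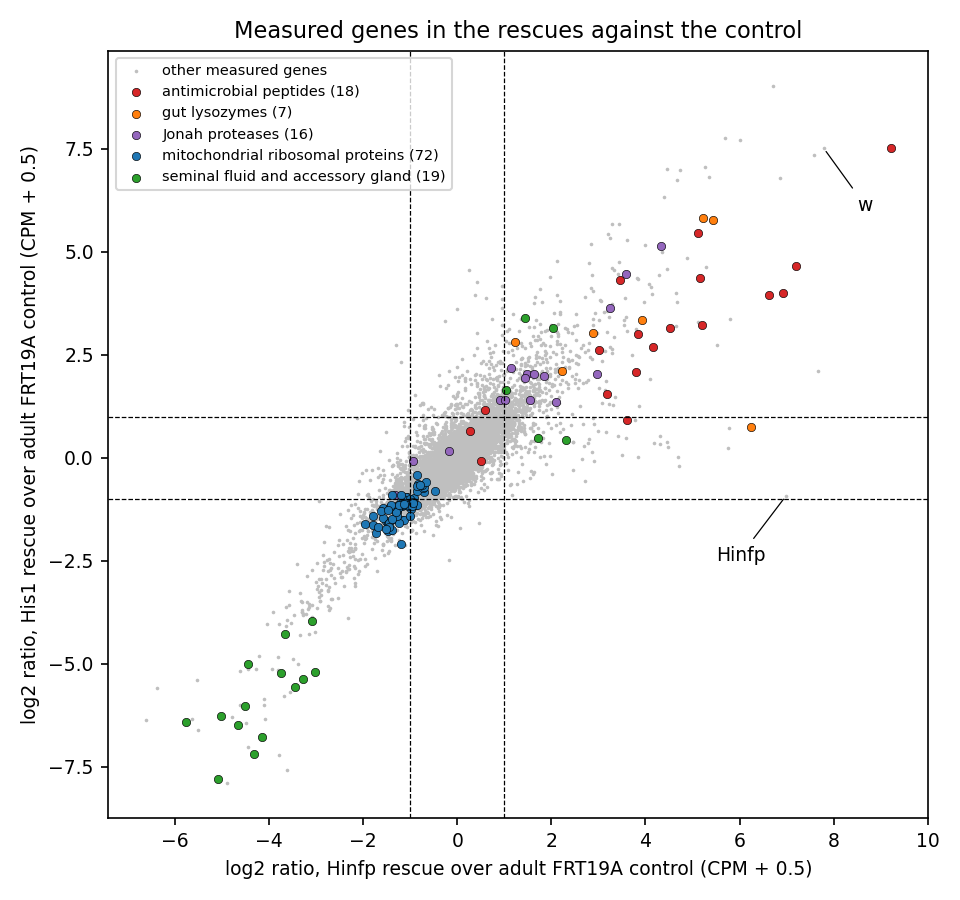
Each point is 1 of the 10750 measured genes, with its log2 ratio of the Hinfp rescue over the adult FRT19A control on the x axis and of the His1 rescue over the same control on the y axis, and dashed lines mark 2-fold. Antimicrobial peptide, lysozyme and Jonah protease genes lie mostly at upper right, mitochondrial ribosomal protein genes just below 2-fold at lower left, and most seminal fluid genes far down at lower left; the axes share the control library.

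On the chromosome arms, 2.63% of the 1671 measured genes on X were higher in both rescues and 3.35% were lower. On the arms 2L, 2R, 3L and 3R, the share of higher genes lay between 4.72% and 5.70%, and the share of lower genes between 5.60% and 6.20%. Both shares were smaller on X than on any of those 4 arms. On chromosome 4, with 80 measured genes, 5% were higher and 1.25% lower, a lower share than on X for the lower genes.

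The genes farthest above the control in both rescues were led by DptA, which encodes the antimicrobial peptide Diptericin A. It had 5133 counts in the Hinfp rescue, 1626 in the His1 rescue, 260 in the mutant and 0 in the control, so it was at least 1916-fold higher in the Hinfp rescue and at least 590.4-fold higher in the His1 rescue. Of CG6296, a lipase family gene, the Hinfp rescue had 135 CPM, the His1 rescue 114 CPM, the mutant 59.6 CPM and the control 0.207 CPM from 4 counts. CG2772, also of the lipase family, had 75.6 CPM in the Hinfp rescue, 71.6 CPM in the His1 rescue, 32.5 CPM in the mutant and 0.155 CPM in the control from 3 counts, and its ratio in the Hinfp rescue was 487 (95% interval 166 to 2365). Both lipase genes stood far above the control in the mutant as well. Mov10, named after a human RNA helicase, had 580 counts in the Hinfp rescue, 2517 in the His1 rescue, 834 in the mutant and 3 in the control. CG7720, a sodium-dependent transporter gene, had 736 CPM in the Hinfp rescue, 718 CPM in the His1 rescue, 86.7 CPM in the mutant and 24.6 CPM in the control, so that the rescues lay close together and the mutant lay between them and the control. The lncRNA:CR32368 gene had 122 CPM in the Hinfp rescue, 613 CPM in the His1 rescue, 73.5 CPM in the mutant and 0.672 CPM in the control. For CG11893, the rescues had 91.8 and 301 CPM, the mutant 0.694 CPM and the control 0.931 CPM, so the mutant stood with the control. Srg3 and CG14499 complete the 15 highest with LysB, LysE, TotA, TotC and Drsl3, which belong to the gene families described next, and with w.

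**Figure D2:**
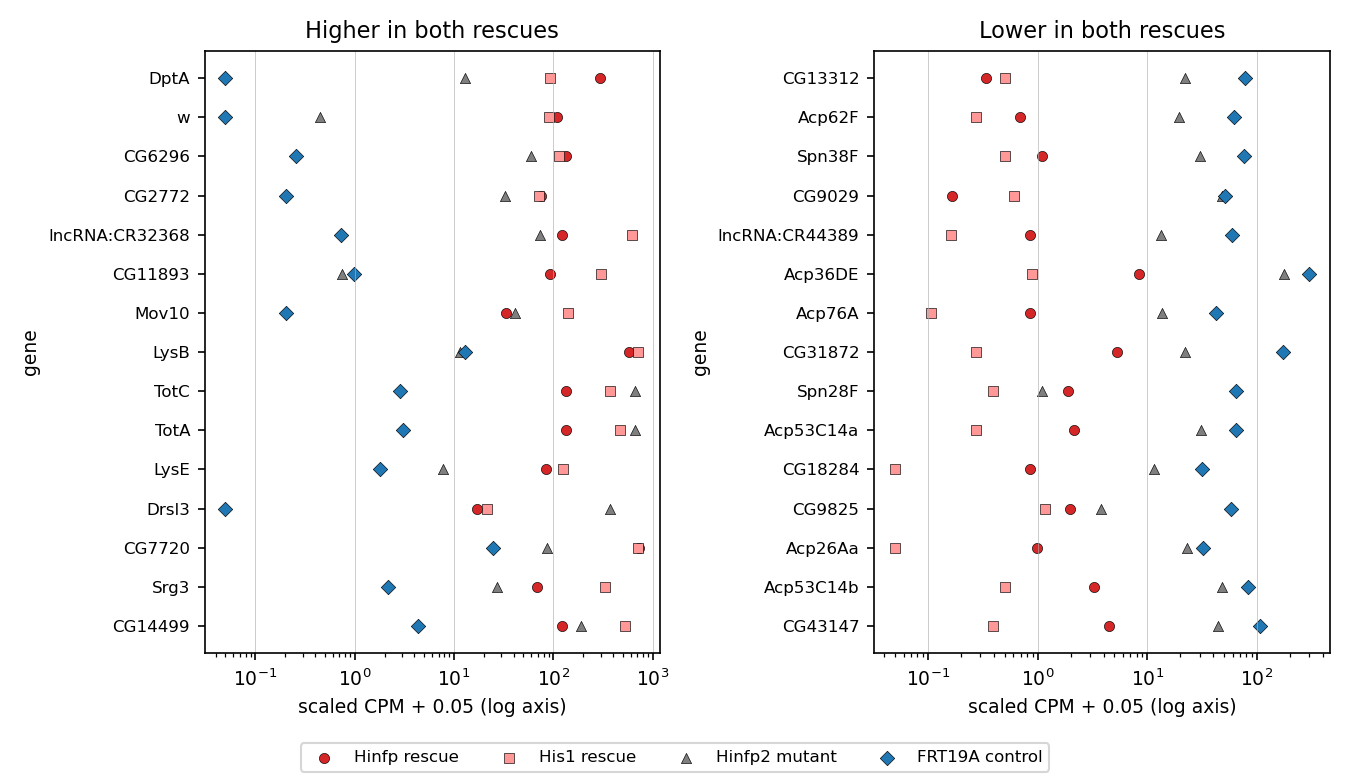
Scaled CPM plus 0.05 on a log axis in the Hinfp rescue, the His1 rescue, the Hinfp2 mutant and the FRT19A control, 1 library each, for the 15 genes with the largest shared increase (left) and decrease (right) at a mean of at least 10 CPM. On the left the control lies below both rescues at every gene, and on the right above them, while the mutant takes different places from gene to gene.

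Immune effector genes were higher in both rescues. Of 19 listed antimicrobial peptide genes 18 were measured, and 14 were higher in both and none lower, beside 4.86% of all measured genes, with a median log2 ratio of 3.997 in the Hinfp rescue and 3.08 in the His1 rescue. Of the 18, 10 had no count in the control and were measured through the other libraries, and the median with those genes at their bound is 5.30 in the Hinfp rescue and 4.22 in the His1 rescue. AttD, which encodes an attacin, had 60.5 CPM in the Hinfp rescue, 7.49 CPM in the His1 rescue, 21.4 CPM in the mutant and 0 in the control. For DptB, the counts were 1529 in the Hinfp rescue, 261 in the His1 rescue, 135 in the mutant and 2 in the control. AttD and DptB, like DptA above, were thus higher in the Hinfp rescue than in the His1 rescue. The Drosomycin gene Drs went the other way between the rescues, with 54.4 CPM in the Hinfp rescue, 99.0 CPM in the His1 rescue, 130 CPM in the mutant and 4.50 CPM in the control. Drsl3, a Drosomycin relative, had 17.0 CPM in the Hinfp rescue, 21.6 CPM in the His1 rescue, 373 CPM in the mutant and 0 in the control. The 4 members not past the limit in both were CecB, Drsl4, Drsl5 and Mtk, and of these Mtk, which encodes Metchnikowin, had 28.3 CPM in the Hinfp rescue, 18.8 CPM in the His1 rescue, 1.98 CPM in the mutant and 19.9 CPM in the control.

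Among sensors and regulators of the same response, a smaller share was past the limit. Of 12 measured peptidoglycan recognition protein genes, 6 were higher in both rescues, against 4.86% of all measured genes. PGRP-SD, which encodes a secreted recognition protein, had 43.6 CPM in the Hinfp rescue, 11.9 CPM in the His1 rescue and 0.776 CPM in the control. PGRP-SC1b, which encodes a peptidoglycan-degrading amidase, had 11.5 CPM in the Hinfp rescue, 12.7 CPM in the His1 rescue and 0.207 CPM in the control. The receptor genes PGRP-LC and PGRP-LE were not past the limit, with log2 ratios between 0.18 and 0.36 in the rescues. Of 21 Imd and Toll signalling genes, 3 were higher in both (14.3%), namely IKKbeta, pirk and Rel, and the list's median was 0.29 in each rescue. Rel, the NF-kB factor of the Imd pathway, had 356 CPM in the Hinfp rescue, 340.2 CPM in the His1 rescue, 372 CPM in the mutant and 169 CPM in the control. The negative regulator pirk had 141 CPM in the Hinfp rescue, 94.8 CPM in the His1 rescue, 73.4 CPM in the mutant and 26.9 CPM in the control.

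The Turandot genes, which encode stress-induced secreted peptides, were higher in both rescues at 4 of 6 measured members (66.7%, beside 4.86% of all measured genes). TotA had 2303 counts in the Hinfp rescue, 8232 in the His1 rescue, 13435 in the mutant and 58 in the control. TotC had 134 CPM in the Hinfp rescue, 372 CPM in the His1 rescue, 665 CPM in the mutant and 2.79 CPM in the control. Both genes were thus highest in the mutant, lower in the His1 rescue, lower again in the Hinfp rescue, and far lower in the control. TotX ran differently, with 7.18 CPM in the Hinfp rescue, 35.9 CPM in the His1 rescue, 0.892 CPM in the mutant and 0.207 CPM in the control. Among 8 measured JAK-STAT genes, the cytokine gene upd3 alone was past the limit in both rescues, with 69 counts in the Hinfp rescue, 35 in the His1 rescue, 195 in the mutant and 4 in the control. Of 10 EGFR signalling genes, pnt, rho and spi were higher in both (30%, beside 4.86% of all measured genes).

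Secreted digestive enzymes were among the abundant genes that were higher in both rescues. Of 16 Jonah serine protease genes, 12 were higher in both rescues and none lower, beside 4.86% of all measured genes higher, with medians of 1.51 in the Hinfp rescue and 1.95 in the His1 rescue and a summed level of 12108 CPM in the Hinfp rescue, 14082 CPM in the His1 rescue, 2452 CPM in the mutant and 5098 CPM in the control. The mutant stood below the control and both rescues above it. Jon65Ai had 143 CPM in the Hinfp rescue, 251 CPM in the His1 rescue, 36.7 CPM in the mutant and 6.67 CPM in the control. Jon99Fii was a member that ran the other way, with 269 CPM in the Hinfp rescue, 364 CPM in the His1 rescue, 29.5 CPM in the mutant and 675 CPM in the control. Of 13 trypsin and other midgut protease genes, 4 were higher in both (30.8%), and betaTry had 8011 CPM in the Hinfp rescue, 5470 CPM in the His1 rescue, 222 CPM in the mutant and 901 CPM in the control. The list's medians were 0.20 in the Hinfp rescue and 0.26 in the His1 rescue. Of 14 amylase and maltase genes, 5 were higher in both (35.7%), and Amy-p had 6908 CPM in the Hinfp rescue, 6402 CPM in the His1 rescue, 2949 CPM in the mutant and 1451 CPM in the control. Alpha- and beta-trypsin, the 2 amylase genes and several Jonah and lysozyme genes are near-identical copies that can share reads, so the split between such copies is uncertain.

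Gut lysozyme genes, whose products digest bacterial cell walls, were higher in both rescues at 6 of 7 members (85.7%, beside 4.86% of all measured genes). Their medians were 3.92 in the Hinfp rescue and 3.03 in the His1 rescue. With genes at 0 in the control set to their bound, the medians were 5.23 in the Hinfp rescue and 3.03 in the His1 rescue. LysB, on chromosome 3L at 1207371 to 1207981, had 578 CPM in the Hinfp rescue, 719 CPM in the His1 rescue, 11.5 CPM in the mutant and 12.8 CPM in the control, a ratio of 45.2 (39.9 to 51.5) in the Hinfp rescue and of 56.3 (49.6 to 64.1) in the His1 rescue. The mutant lay near the control for LysB. LysD had 1690 CPM in the Hinfp rescue, 1862 CPM in the His1 rescue, 61.4 CPM in the mutant and 228 CPM in the control, so the mutant lay below the control there. The exception was LysP, with 644 counts in the Hinfp rescue, 6 in the His1 rescue, 138 in the mutant and 0 in the control. Peritrophins, which build the chitinous lining of the gut lumen, were listed together with mucins. Of the 16 measured members of that list, 4 were higher in both rescues (25%, beside 4.86% of all measured genes). Peritrophin-15a had 291 CPM in the Hinfp rescue, 333 CPM in the His1 rescue, 93.3 CPM in the mutant and 55.2 CPM in the control.

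Further single genes with high shared ratios were on lists of metabolism and of intestinal progenitors, and the cells that expressed them were not measured. Of 14 intestinal progenitor and Notch genes, 4 were higher in both rescues (28.6%, beside 4.86% of all measured genes), namely E(spl)m3-HLH, Sox21a, mira and Sox100B. The list's medians were 0.52 in the Hinfp rescue and 0.79 in the His1 rescue. Sox21a, a transcription factor of stem cells and enteroblasts, had 6.54 CPM in the Hinfp rescue, 11.3 CPM in the His1 rescue, 3.37 CPM in the mutant and 1.29 CPM in the control. The stem cell gene esg had log2 ratios of 0.77 in the Hinfp rescue and 1.48 in the His1 rescue. Of 11 insulin and FOXO target genes, 4 were higher in both (36.4%, beside 4.86% of all measured genes). Ilp3, an insulin-like peptide gene, had 226 counts in the Hinfp rescue, 346 in the His1 rescue, 20 in the mutant and 9 in the control, and the insulin receptor gene InR had 85.3 CPM in the Hinfp rescue, 84.2 CPM in the His1 rescue, 349 CPM in the mutant and 25.2 CPM in the control. The mutant was thus near the control for Ilp3 and far above all 3 other libraries for InR. Of 79 cytochrome P450 genes, 9 were higher in both (11.4%, beside 4.86% of all measured genes) and 4 lower (5.06%, near the 5.52% of all measured genes), and Cyp6a2 had 180.5 CPM in the Hinfp rescue, 316 CPM in the His1 rescue, 60.0 CPM in the mutant and 21.7 CPM in the control. Of 31 UDP-glycosyltransferase genes, 4 were higher and 4 lower (12.9% each, beside 4.86% and 5.52% of all measured genes). Of 11 measured odorant-binding protein genes, 2 were higher in both (18.2%, beside 4.86%) and 3 lower (27.3%, beside 5.52%). Obp56d, one of the higher, had 346 CPM in the Hinfp rescue, 219 CPM in the His1 rescue, 4.06 CPM in the mutant and 13.2 CPM in the control. Obp56f, one of the lower, had 2 counts in the Hinfp rescue, 1 in the His1 rescue, 93 in the mutant and 110 in the control.

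**Figure D3:**
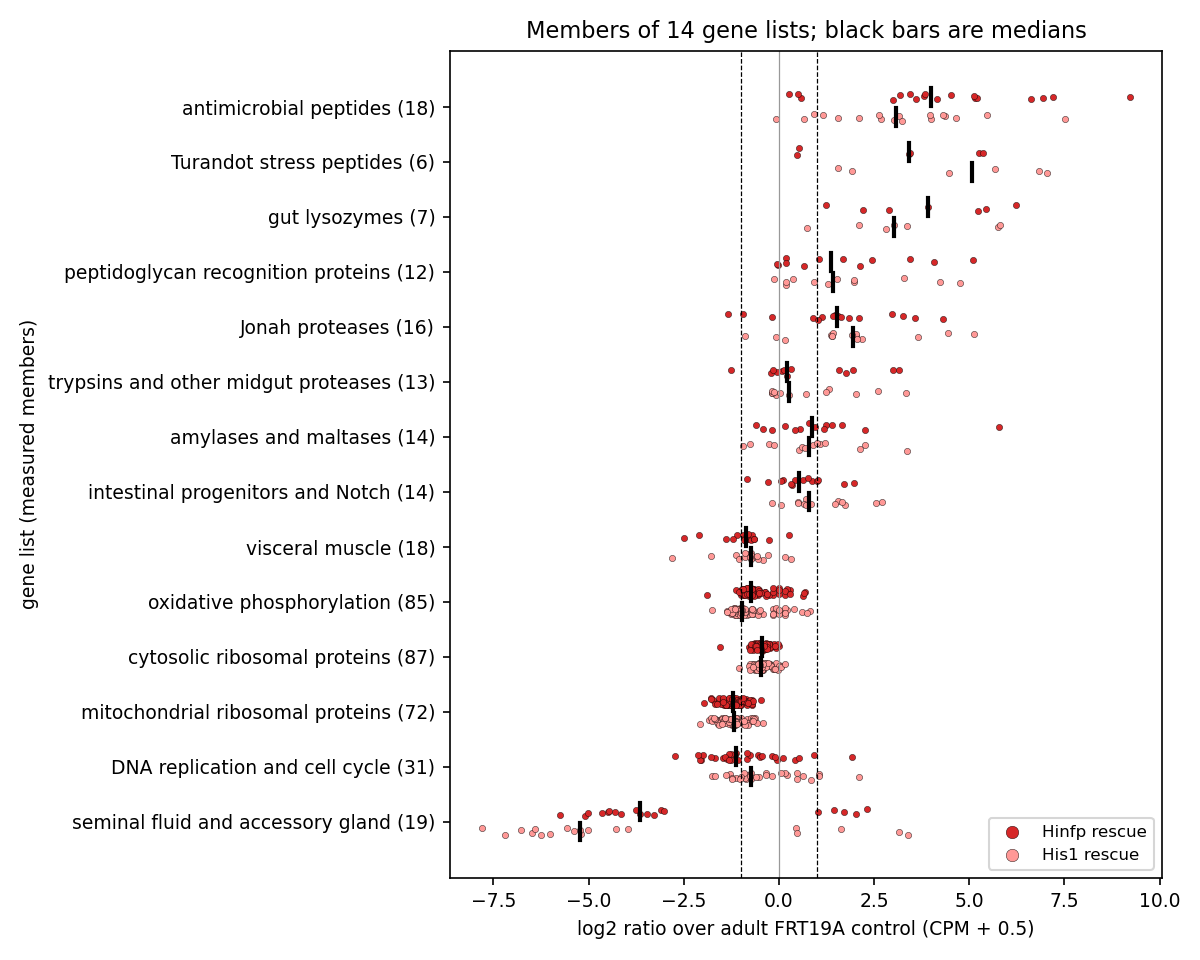
Log2 ratios over the adult FRT19A control for each measured member of 14 gene lists (number of measured members in brackets), with the Hinfp rescue in the upper row and the His1 rescue in the lower row of each list, black bars at the medians and dashed lines at 2-fold. Antimicrobial peptide, Turandot and lysozyme genes reach the highest medians, the mitochondrial ribosomal protein medians of -1.20 and -1.18 lie past the lower line, and the seminal fluid list splits into a large low and a small high group.

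Genes of the mitochondrial ribosome, which translates the few messages of the mitochondrial genome, had the most lower members of the 65 lists by number. As a share of measured members, the seminal fluid and accessory gland list had more, with 73.7% against 65.3%. Of 72 measured mitochondrial ribosomal protein genes, 47 were lower in both rescues and none higher, beside 5.52% of all measured genes. Their medians were -1.20 in the Hinfp rescue and -1.18 in the His1 rescue, and all 72 lay below the control in both. Their summed level was 1503 CPM in the Hinfp rescue, 1513 CPM in the His1 rescue, 1203 CPM in the mutant and 3318 CPM in the control. In mRpL44, the rescues had 13.8 and 15.4 CPM, the mutant 12.8 CPM and the control 48.8 CPM. In mRpS10, the rescues had 14.9 CPM each, the mutant 11.6 CPM and the control 48.8 CPM. The mutant lay below the control at these genes as the rescues did.

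Of 85 nuclear oxidative phosphorylation genes, 5 were lower in both rescues (5.88%), a share near the 5.52% of all measured genes. Without regard to the limit, 71 of the 85 lay below the control in both rescues and 7 above it in both, with medians of -0.73 in the Hinfp rescue and -0.97 in the His1 rescue. Cyt-c-p, the main cytochrome c gene, stood out with 356 CPM in the Hinfp rescue, 391 CPM in the His1 rescue, 486 CPM in the mutant and 1329 CPM in the control, ratios of 0.268 (0.261 to 0.276) in the Hinfp rescue and 0.294 (0.286 to 0.302) in the His1 rescue. Hsp60A, a mitochondrial chaperone gene, had 240.3 CPM in the Hinfp rescue, 262 CPM in the His1 rescue, 257 CPM in the mutant and 720.1 CPM in the control. Of 22 glycolysis and TCA cycle genes, 4 were lower in both (18.2%, beside 5.52% of all measured genes), among them Fum1, Ldh and Pgi. Cytosolic ribosomal protein genes were past the limit at none of 87, with medians of -0.45 in the Hinfp rescue and -0.47 in the His1 rescue, so the 2 kinds of ribosome differed in how far their genes lay below the control. Vacuolar proton pump genes were past it at none of 25, with medians of -0.39 and -0.36.

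DNA replication and cell cycle genes were lower in both rescues at 8 of 31 measured members (25.8%, beside 5.52% of all measured genes) and higher at 1 (3.23%, beside 4.86%). PCNA, the sliding clamp of DNA polymerase, had 3.53 CPM in the Hinfp rescue, 7.83 CPM in the His1 rescue, 4.71 CPM in the mutant and 26.3 CPM in the control. Mcm3, a subunit of the replicative helicase, had 5.04 CPM in the Hinfp rescue, 6.42 CPM in the His1 rescue, 4.86 CPM in the mutant and 22.9 CPM in the control. The mitotic kinase gene aurA was the member that was higher, with 17.5 CPM in the Hinfp rescue, 20.2 CPM in the His1 rescue, 10.9 CPM in the mutant and 4.29 CPM in the control. His2Av, a replacement histone gene, had 38.2 CPM in the Hinfp rescue, 42.5 CPM in the His1 rescue, 50.3 CPM in the mutant and 97.0 CPM in the control. For PCNA and Mcm3 the mutant stood with the rescues, and for His2Av it stood between them and the control, nearer to the rescues.

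Abundant genes of other kinds were also lower in both rescues. Akr1B, an aldo-keto reductase gene, had 1035 CPM in the Hinfp rescue, 1094 CPM in the His1 rescue, 901 CPM in the mutant and 4104 CPM in the control. LManVI, an alpha-mannosidase gene, had 1963 CPM in the Hinfp rescue, 1671 CPM in the His1 rescue, 324 CPM in the mutant and 4054 CPM in the control. For the visceral muscle list, 3 of 18 measured genes were lower in both (16.7%, beside 5.52% of all measured genes), the actin genes Act57B, Act87E and Act88F. The list is wider than the visceral muscle markers set in the design, and Act88F is not among those markers. The list's medians were -0.86 in the Hinfp rescue and -0.74 in the His1 rescue. Act87E had 110.3 CPM in the Hinfp rescue, 137 CPM in the His1 rescue, 572 CPM in the mutant and 470.1 CPM in the control, so here the mutant stood with the control. Of 8 measured haemocyte list genes, the collagen IV genes Col4a1 and vkg were lower in both (25%, beside 5.52% of all measured genes). The haemocyte list as a whole went both ways. Without regard to the limit, 4 members lay above the control in both rescues and 4 below it in both. Its medians were -0.15 in the Hinfp rescue and -0.018 in the His1 rescue. Among 21 Malpighian tubule genes, 1 was higher and 1 lower in both (4.76% each), near the shares of all measured genes. The higher one, Uro (urate oxidase), had 439 CPM in the Hinfp rescue, 704 CPM in the His1 rescue, 1521 CPM in the mutant and 74.6 CPM in the control, and the lower one was the potassium channel gene Irk3. Among lists of gut cell types, none of 12 enteroendocrine peptide genes and none of 7 copper cell genes was past the limit. Of all measured genes, 4.86% were higher and 5.52% lower, and lists this short can hold none at such shares. Of 11 enterocyte genes, 1 was higher, Npc1b (9.09%, beside 4.86% of all measured genes). In all, 13 of the 57 lists with at least 5 measured members had no member past the limit in both rescues.

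The genes farthest below the control in both rescues included many of the male accessory gland, which makes seminal fluid proteins and lies beside the gut in the abdomen, and 6 of the 15 lowest carry the name Acp (accessory gland protein). Of 19 measured seminal fluid and accessory gland genes, 14 were lower in both rescues (73.7%, beside 5.52% of all measured genes) and 3 higher (15.8%, beside 4.86%). Acp36DE, a seminal fluid protein gene, had 8.28 CPM in the Hinfp rescue, 0.845 CPM in the His1 rescue, 174 CPM in the mutant and 297.5 CPM in the control. Acp26Aa had 16 counts in the Hinfp rescue, 0 in the His1 rescue, 459 in the mutant and 615 in the control, so it was at least 188-fold lower in the His1 rescue. The list summed to 96.7 CPM in the Hinfp rescue, 65.7 CPM in the His1 rescue, 451 CPM in the mutant and 847 CPM in the control. The 3 higher members were Dup99B, Ebp and EbpII, genes of the ejaculatory duct and bulb, and EbpII had 3.88 CPM in the Hinfp rescue, 9.01 CPM in the His1 rescue, 5.30 CPM in the mutant and 0.569 CPM in the control. Without the 14 lower genes of this list, 579 genes were lower in both rescues, a count that still holds any unlisted genes of the same tissue. Of 19 measured serpin genes 4 were lower in both (21.1%, beside 5.52% of all measured genes). The serpin list as a whole went both ways. Without regard to the limit, 10 serpin genes lay above the control in both rescues and 5 below it in both. The list's medians were 0.56 in the Hinfp rescue and 0.31 in the His1 rescue. Spn38F had 1.04 CPM in the Hinfp rescue, 0.451 CPM in the His1 rescue, 30.1 CPM in the mutant and 75.9 CPM in the control. Outside the lists, CG31872 had the same order of libraries as Acp36DE, with 5.27 CPM in the Hinfp rescue, 0.225 CPM in the His1 rescue, 22.2 CPM in the mutant and 171 CPM in the control.

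Seminal fluid RNA also varied among the pharate libraries within a genotype. The same list summed to 8.17 and 611 CPM in the SE and PE libraries of the pharate Hinfp2 deletion mutant, to 594 and 1141 CPM in those of W1118, and to 6.11 and 9.81 CPM in those of FRT19A. The part of attached reproductive tissue in the shared lower genes was not tested. Testis genes did not separate the rescues from the control: the testis list summed to 30.7 CPM in the Hinfp rescue, 45.2 CPM in the His1 rescue, 1049 CPM in the mutant and 42.2 CPM in the control. The markers aly and comr had no count in either rescue or in the control.

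Transposable element counts were higher in the rescues than in the control. Element counts made up 4.11% of all counts in the Hinfp rescue (exact 95% interval 4.10% to 4.12%), 4.48% in the His1 rescue (4.47% to 4.48%), 16.6% in the mutant (16.5% to 16.6%) and 1.70% in the control (1.69% to 1.70%). Of 139 measured families, 21 were at least 2-fold higher in both rescues (15.1%) and 1 was lower in both (0.719%). The median log2 ratio over all measured families was 0.55 in the Hinfp rescue, 1.03 in the His1 rescue and 1.89 in the mutant, and 112 families lay above the control in both rescues. Reads that match several copies are counted per family, and how they were assigned is not given in the sources used here.

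The retrotransposon copia was the most counted family in both rescues. It had 317994 counts in the Hinfp rescue, 436520 in the His1 rescue, 2625652 in the mutant and 41078 in the control, which is 8.67 times the control level in the Hinfp rescue (8.58 to 8.76) and 11.6 times in the His1 rescue (11.5 to 11.7). Its share of element counts was 41.3% in the Hinfp rescue, 51.2% in the His1 rescue, 73.5% in the mutant and 11.7% in the control. The LTR element accord had 98.6 CPM in the Hinfp rescue, 580 CPM in the His1 rescue, 2562 CPM in the mutant and 4.03 CPM in the control. For HMS_Beagle, the order was different, with 796 CPM in the Hinfp rescue, 291 CPM in the His1 rescue, 522 CPM in the mutant and 31.2 CPM in the control. G2, Juan and Rt1b, which are LINE-like elements, and gypsy12_2 complete the families with the largest shared increase, and in G2 the rescues at 64.6 and 58.1 CPM stood above the mutant at 43.0 CPM and the control at 3.21 CPM. Dmau_mariner, a mariner element whose family name refers to Drosophila mauritiana, had 128 counts in the Hinfp rescue, 310 in the His1 rescue and 0 in the mutant and the control, so it was at least 47.8-fold higher in the Hinfp rescue and at least 113-fold higher in the His1 rescue. It was counted in the 2 transgenic libraries and in neither other adult library. The retrotransposon 412 was the family that was lower, with 662 CPM in the Hinfp rescue, 1171 CPM in the His1 rescue, 1476 CPM in the mutant and 3067 CPM in the control. Germline piRNA pathway genes, which silence elements, were higher in both rescues at 2 of 24 measured members (8.33%, beside 4.86% of all measured genes) and lower at 1 (4.17%, beside 5.52%). The siRNA pathway and heterochromatin lists had no member of 5 and of 19 higher. Of the 19 heterochromatin genes 2 were lower, Lam and HP6 (10.5%, beside 5.52% of all measured genes). That list's medians were -0.0025 in the Hinfp rescue and -0.056 in the His1 rescue. HP6 rests on few counts, 2 in the Hinfp rescue, 3 in the His1 rescue and 20 in the control.

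**Figure D4:**
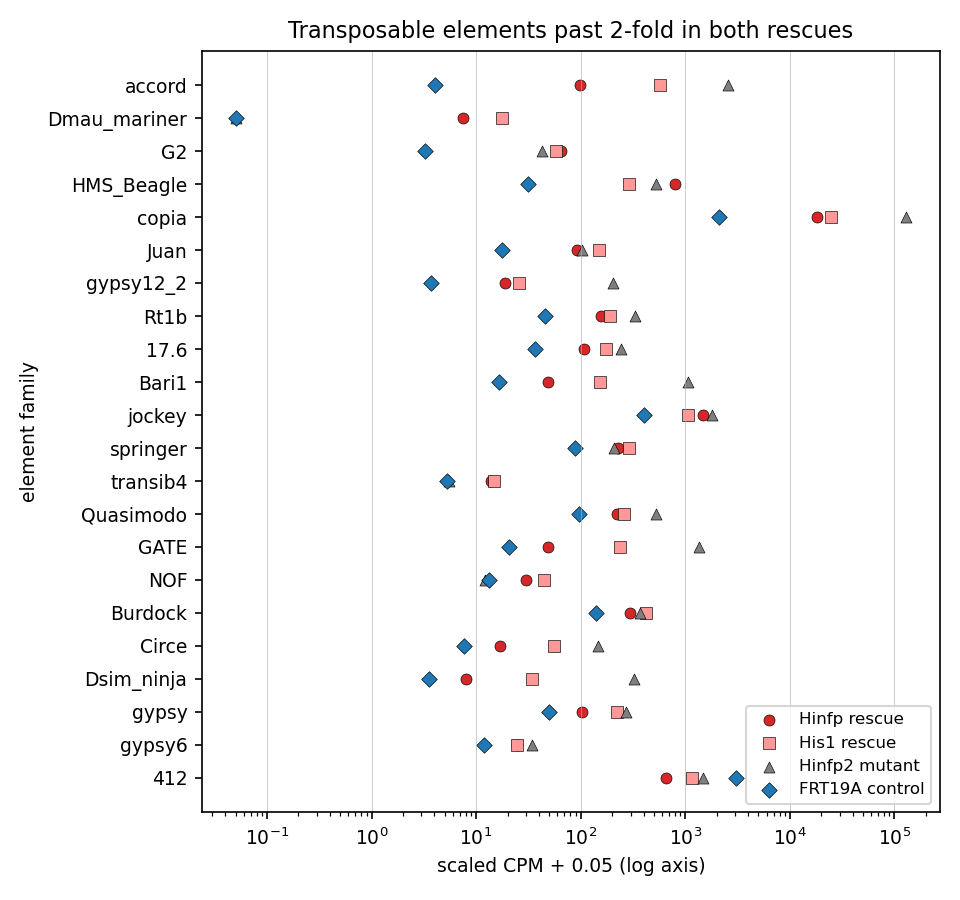
Scaled CPM plus 0.05 on a log axis for the 22 element families past 2-fold in both rescues, in the Hinfp rescue, the His1 rescue, the Hinfp2 mutant and the FRT19A control, 1 library each. The control is the lowest or joint lowest of the libraries at most families, and 412 at the bottom is the one family with the control highest. Most of the higher families, copia and accord among them, are highest in the mutant.

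Pharate libraries, which took no part in choosing the genes, were used to see how the shared genes stood between control strains and between the Hinfp2 deletion mutant and W1118. The groups have an SE and a PE library each, terms the labels do not spell out, and a gene was counted where the SE pair and the PE pair both passed 2-fold in 1 direction. The 2 pharate comparisons share the W1118 libraries. In pharate W1118 over pharate FRT19A, 215 of all 10713 measured genes with a pharate row were higher (2.01%) and 123 lower (1.15%). Of the 521 genes higher in both rescues, 74 were higher in pharate W1118 (14.2%) and 6 lower (1.15%). Of the 589 genes lower in both rescues, 77 were higher in pharate W1118 (13.1%) and 26 lower (4.41%), and of the 14 lower seminal fluid genes 13 were among the higher. All 4 lower serpin genes were among the higher too. The shared genes were thus higher in W1118 than in FRT19A more often than all measured genes, whether they were higher or lower in the rescues. Genes lower in both rescues were also lower in W1118 more often than all measured genes (4.41% beside 1.15%).

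In the pharate Hinfp2 deletion mutant over pharate W1118, 523 of the 10713 genes were higher (4.88%) and 364 lower (3.4%). Of the 521 genes higher in both rescues, 138 were higher in the deletion mutant (26.5%) and 28 lower (5.37%). Of the 589 genes lower in both rescues, 16 were higher (2.72%) and 98 lower (16.6%). On each side the larger share lay in the direction of the rescues. Genes higher in both rescues were, however, also lower in the deletion mutant more often than all measured genes (5.37% beside 3.4%). Of the 47 mitochondrial ribosomal protein genes lower in both rescues, 17 were lower in the deletion mutant and none in the strain comparison, and the list of 71 with a pharate row summed to 1206 and 1083 CPM in SE and PE of the deletion mutant, 2184 and 2398 CPM in W1118, and 2539 and 2446 CPM in FRT19A. Of the 14 higher antimicrobial peptide genes, 7 were higher in the deletion mutant than in W1118, and 2 were higher in W1118 than in FRT19A. Of the 12 higher Jonah genes, 1 was higher in the deletion mutant than in W1118, and 4 were higher in W1118 than in FRT19A. The summed Jonah level was 2285 and 2458 CPM in SE and PE of the deletion mutant, 1068 and 4171 CPM in W1118 and 2315 and 2990 CPM in FRT19A, so the order of the groups differed between the SE and PE libraries.

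Single genes show both kinds of pharate pattern. CG6296 had 26.9 and 54.5 CPM in SE and PE of the pharate deletion mutant, 12.9 and 72.1 CPM in W1118 and 0.782 and 0.165 CPM in FRT19A, so it was low in FRT19A at both stages and higher in each of the other pharate libraries shown. TotA had 337 and 248 CPM in SE and PE of the deletion mutant, 4.96 and 3.19 CPM in W1118 and 1.79 and 1.44 CPM in FRT19A, so the control strains were alike. copia had 64773 and 154643 CPM in SE and PE of the deletion mutant, 14495 and 46145 CPM in W1118 and 1248 and 3598 CPM in FRT19A, so it separated the control strains as well as the mutant. The element accord had 21310 and 4235 CPM in SE and PE of the deletion mutant, 1820 and 284 CPM in W1118 and 58.3 and 7.71 CPM in FRT19A, the same order as copia.

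**Figure D5:**
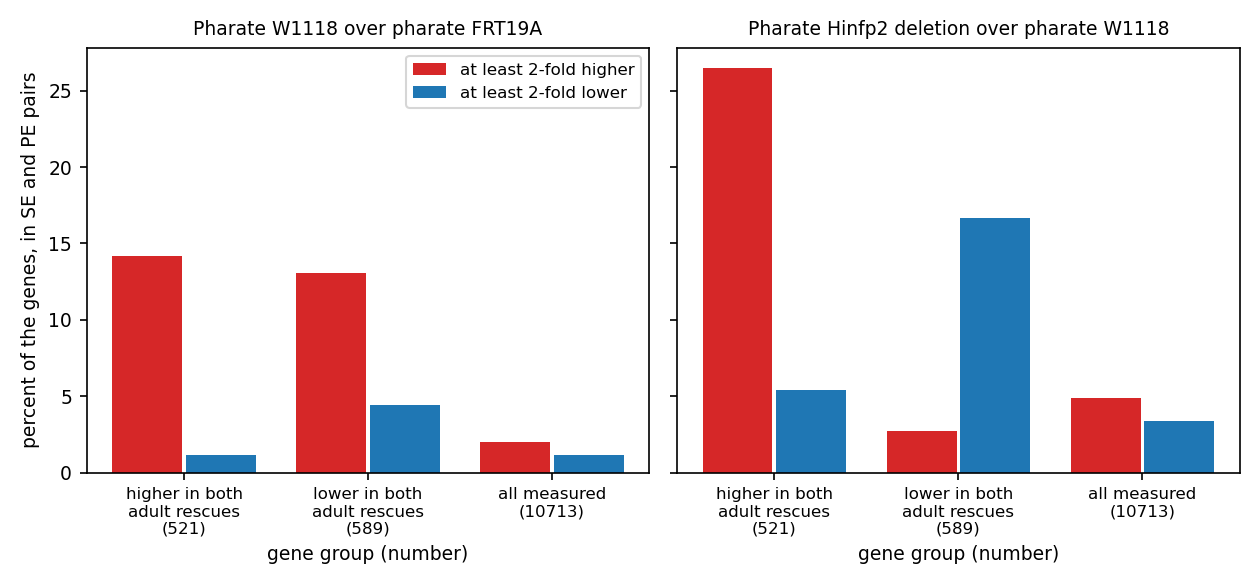
Percent of genes at least 2-fold higher (red) or lower (blue) in both the SE and the PE pair, for genes higher in both adult rescues, genes lower in both adult rescues and all measured genes, in pharate W1118 over FRT19A (left) and in the pharate Hinfp2 deletion mutant over W1118 (right). On the left the red bars are 14.2%, 13.1% and 2.01% and the blue bars 1.15%, 4.41% and 1.15%. On the right the red bar is tallest for the higher genes (26.5%) and the blue bar for the lower genes (16.6%).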

How the data were processed

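RNA was sequenced from fly guts on the BGISEQ-500 platform, per the labels, which describe library preparation both as ribosomal RNA removal and as poly-A selection. The authors deposited raw counts per gene and per element family for the adult libraries, with their own log2 fold changes of each rescue over the control, and raw counts for the pharate libraries. Trimmomatic 0.39, Bowtie2 2.3.5, STAR 2.5.3a and featureCounts 1.6.2 are named for the adult libraries with build dm6, and featureCounts 1.5.2 for the pharate ones, per the submitters' processing notes. Scaling used TMM factors of the gene rows (edgeR 4.0.16, R 4.3.3), within the adult and the pharate table separately, with pseudocount 0.5. A total of 4 pharate count columns of another allele was left out. Gene names matched for 15581 of 15651 rows, and positions come from Ensembl's BDGP6 annotation. The members and gene lists were chosen with earlier results of these data known. The text names Hinfp, w, the 15 higher and 15 lower genes with the largest smaller absolute log2 ratio at a mean of at least 10 CPM, 10 and 10 at 100 CPM, 8 elements per direction, 5 genes per opposite order, and 3 members of a list past the limit (or the 2 most abundant). Some of these are given only in the figures, and other list members were chosen after their values were seen. Alternatives were other scalings (totals, DESeq2 1.42.0 size factors), pseudocounts, filters and limits. Intervals are 95% exact binomial.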

Additional observations from a re-analysis of the deposited data

Results flagged for a closer look

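The rescues passed 2-fold in opposite directions from the control at 3 genes, all lower in the Hinfp rescue and higher in the His1 rescue. The difference between the rescues was not tested, since each is 1 library. Lcp1, a larval cuticle protein gene, had 4 counts in the Hinfp rescue, 202 in the His1 rescue, 161 in the mutant and 25 in the control, a log2 difference of 4.02 between the His1 and the Hinfp rescue. Cpr62Bb, a cuticle protein gene, had 3 counts in the Hinfp rescue, 127 in the His1 rescue, 12 in the mutant and 20 in the control, a difference of 3.51. HDAC11, a histone deacetylase gene, had 33 counts in the Hinfp rescue, 186 in the His1 rescue, 315 in the mutant and 86 in the control, a difference of 2.19.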

How the results depend on the processing

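The counts of genes higher in both rescues and genes lower in both rescues were 522 and 593; gene totals gave 536 and 580, and DESeq2 size factors gave 512 and 617. The 4-fold limit gave 152 higher and 155 lower genes. The authors' deposited table gave 730 higher and 975 lower genes, and it differs from the values above in scaling, on gene and element totals, and in its treatment of low counts, which were not varied together here. Pseudocounts of 0.1 and 2 CPM gave 654 and 382 higher genes and 781 and 463 lower genes. Of transposable elements lower in both rescues there were 2 with no filter on low values, against 1. The alternatives for transposable elements higher in both rescues gave 20 to 24 families, against 21. Of 1044 values of named genes and elements under 3 alternatives, all 1044 kept their direction and their side of 2-fold. Most of these genes and elements were named because they were past the limit or far from the control. This agreement was therefore largely given in advance and says little about other genes. The pseudocount of 2 CPM, which lowered the gene counts above, was not among the 3 alternatives. Of 342 list counts under scalings and a pseudocount of 0.1, 327 stayed within 1.5 times. Filtering on the mean without the mutant, leaving out the seminal fluid list, leaving copia out of the library size and scaling the pharate table on totals were chosen after seeing the data. No paired analysis was possible because each adult genotype has 1 library and no test was made. Low genes rest on few counts, so genes with under about 1 CPM in the control have uncertain ratios.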
